A study of Mus musculus with 4 samples.

Results

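The genes described here are 9 genes of naive T cell homing and stemness, namely Ccr7, S1pr1, Klf2, Foxo1, Tcf7, Lef1, Satb1, Bach2 and Foxp1. They were taken by symbol from the 16142 genes of the deposited expression table. All 9 were listed, and all 9 reached a mean of 1 FPKM over the 4 libraries, the minimum for the 9831 genes that were tested. FPKM counts sequenced fragments per unit of transcript length and of sequencing depth, so that levels can be compared between genes.

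Naive T cells circulate between blood and lymphoid organs. CCR7 brings them into lymph nodes, and S1PR1, a receptor for the lipid sphingosine 1-phosphate, leads them out again. The transcription factor FOXO1 drives Ccr7, Il7r and Klf2, KLF2 drives S1pr1, and TCF1 (encoded by Tcf7) and LEF1 maintain naive and stem-like cells, while antigen receptor signals, through PI3K and AKT, take FOXO1 out of the nucleus and turn this program down.

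The RNA came from splenic CD4+ T cells of C57BL/6 mice of either sex aged 6 to 12 weeks. The study asks how Regnase-1, an RNase encoded by Zc3h12a that degrades mRNAs of T cell activation, acts in Foxp3+ regulatory T cells. It uses a mutant, R111A, whose site of cleavage by the protease MALT1 is changed. In 2 libraries the cells were wild type (WT B6 mice), and in the other 2 they came from Cd4CreERT2LSL-R111Afl/fl mice, in which tamoxifen, injected i.p. over 5 days at 75 mg/kg, activates Cre in cells that use the Cd4 promoter. Cre removes a STOP cassette and so turns on a CAG-driven Regnase-1 R111A transgene with EGFP in the Rosa26 locus. The cells were purified untouched with beads, FACS sorted, by GFP in the case of R111A, and all 4 libraries were made after 12 h of stimulation with anti-CD3 (5 µg/mL) and anti-CD28 (1 µg/mL). The labels name tamoxifen after both kinds of mice, in wording that can be read either way for WT, and elsewhere in the study sorted T cells of WT B6 mice given tamoxifen served as controls. WT cells carry neither Cre, transgene nor EGFP, so the effects of these and of the mutant protein cannot be told apart. Unstimulated cells were not analysed here.

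Zc3h12a was at 16.97 and 15.72 FPKM in WT replicates 1 and 2 and at 196.30 and 130.87 FPKM in R111A replicates 1 and 2. Both R111A libraries thus carried far more of this transcript, and endogenous and transgene reads are not separated in it. How many reads a value rests on is not given. Over all genes, FPKM values added up to 801475 and 836143 in WT and to 1053551 and 1012215 in R111A, and the depth estimated from steps among low values was 1.06 times as high in WT replicate 1 as in R111A replicate 1 and 1.19 times as high as in R111A replicate 2, while for WT replicate 2 these factors were 1.0 and 1.18. The spread between R111A replicates was wider than that between WT replicates, with an SD of the log2 ratio of 0.316 against 0.124 over 1938 genes of at least 50 FPKM, and it was 0.589 to 0.635 between the groups.

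Markers of CD4+ T cells were high in all 4 libraries. The 8 of 11 listed ones that the table holds, with Cd3g the most abundant, summed to 2019 and 2009 FPKM in WT against 1740 and 1600 FPKM in R111A. Cd4 itself was at 157.54 and 131.28 FPKM in WT against 70.69 and 51.35 FPKM in R111A, so it was present but lower in both R111A libraries. On the FPKM scale 5 of the 8 were lower in both R111A libraries, with Cd3g, Cd4, Cd5 and Lck at an adjusted p under 0.05 (limma, described below). Cd3d (205.01 and 213.72 FPKM in WT against 275.23 and 266.87 FPKM in R111A) and Cd2 were higher in both R111A libraries, and Cd3e overlapped. Of the higher ones Cd3d alone passed that threshold. Cd8a did not exceed 0.20 FPKM in any library, and the 2 markers of CD8+ T cells, chiefly Cd8b1, summed to 7.31 and 6.76 FPKM in WT against 3.88 and 4.46 FPKM in R111A. Markers of regulatory T cells (5 of 5, Il2ra the most abundant) summed to 197 and 196 FPKM in WT and 143 and 148 FPKM in R111A, with Foxp3 at 11.31 and 8.78 against 2.86 and 1.86 FPKM. Some markers of other cells were higher in R111A at low levels. The sum of the 8 myeloid markers was 1.32 and 0.92 FPKM in WT and 8.0 and 7.45 FPKM in R111A, with Fcer1g the most abundant and Csf3r at 0. Of the 8, 7 were higher in both R111A libraries and 0 lower, against 32.0% and 46.3% of all genes tested. Lyz2 was at 0.45 and 0.0 FPKM in WT against 3.01 and 2.37 FPKM in R111A, and 5 of the 8 stayed below 1 FPKM in all libraries.

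For the 6 erythroid markers the sum was 0.66 and 0.70 FPKM in WT against 12.9 and 13.0 FPKM in R111A, nearly all of it Hba-a1, with Hba-a2 and Hbb-bs at 0. The 7 B cell markers summed to 2.23 and 1.06 FPKM in WT against 5.32 and 4.6 FPKM in R111A, with Cd79a the most abundant. Cd79a was at 0.32 and 0.24 FPKM in WT against 2.99 and 2.37 FPKM in R111A and Cd79b at 1.15 and 0.24 against 1.51 and 1.71 FPKM, while Ms4a1 stayed at or under 0.23 FPKM and overlapped between the groups. The endothelial markers, 3 of 4 in the table, summed to 5.75 and 4.97 FPKM in WT against 18.5 and 12.6 FPKM in R111A, which was Pecam1 almost alone, since Cdh5 and Kdr were at or under 0.04 FPKM. The B cell and endothelial markers thus did not move together, with Cd79a, Cd79b and Pecam1 higher in R111A and Ms4a1, Cdh5 and Kdr near 0 in every library. NK cell markers (5 of 5, Nkg7 the most abundant) summed to 20.4 and 23.3 FPKM in WT against 17.8 and 19.1 FPKM in R111A, and of these Nkg7 alone was lower, at 19.28 and 22.83 FPKM in WT against 4.43 and 4.14 FPKM in R111A. The other 4 were higher in both R111A libraries, chiefly Klrd1, at 12.14 and 13.59 FPKM against 1.00 and 0.40 FPKM in WT. None of the 7 mitochondrial transcripts is in the table. The part of such cells in the values below was not tested, and in bulk RNA a change in the share of cells that express a gene and a change in RNA per cell cannot be told apart.

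In R111A cells the receptor genes Ccr7 and S1pr1 and the factors Klf2, Foxo1 and Tcf7 rose, Bach2 fell, and Lef1, Satb1 and Foxp1 did not pass the test. Ccr7, S1pr1, Klf2, Foxo1, Tcf7 and Lef1 had R111A values that were all above the WT values, 6 of 9 where 32.0% of all genes tested were so placed. Satb1, Bach2 and Foxp1 had R111A values all below them, 3 of 9 against 46.3% of all genes, a smaller share. The median log2 fold change of the 9 genes was 0.61, against -0.12 for all 9831. By limma, a linear model fitted across all genes, the 5 genes that rose at an adjusted p under 0.05 compare with 21.2% of all genes, and the 1 that fell with 32.1% of all genes. Genes that also changed at least 2-fold are named called genes below. S1pr1 and Klf2 were called higher, 2 of 9 where 8.52% of all genes were called higher, and 0 of 9 were called lower, against 8.34%. With 2 libraries against 2, an exact two-sided permutation test of a single gene has 0.333 as its smallest p, and the adjusted p-values come from the model.

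**Figure D1:**
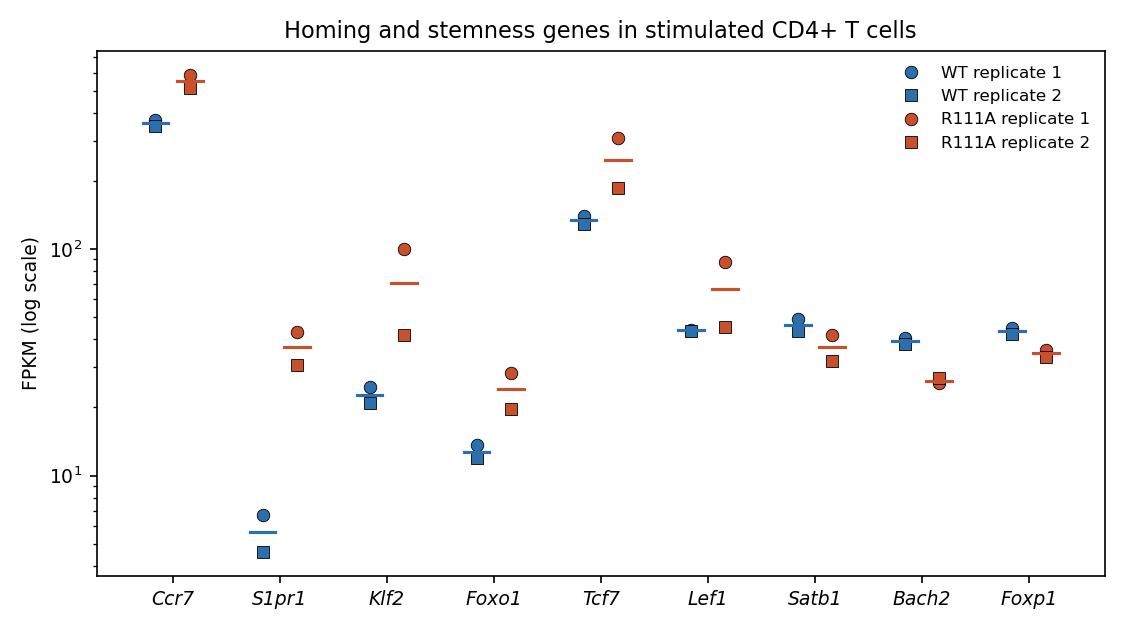
FPKM on a log axis for each of the 9 genes in the 4 libraries, with WT in blue, R111A in orange, replicate 1 as circles, replicate 2 as squares and the group mean as a bar. The groups do not overlap for any of the 9 genes, and the R111A replicates lie furthest apart for Klf2 and Lef1.

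In WT cells Ccr7 stood highest, with a mean of 359 FPKM, followed by Tcf7 with 134 FPKM. Satb1, Lef1 and Foxp1 came next at 46.2, 43.8 and 43.5 FPKM and did not differ beyond the spread of their libraries. Below them were Bach2 (39.2 FPKM), Klf2 (22.8 FPKM), Foxo1 (12.8 FPKM) and S1pr1 (5.64 FPKM), each apart from the next. In R111A cells Ccr7 and Tcf7 kept the top places with means of 550 and 247 FPKM, but the rest of the order differed. By their means Klf2 (70.9 FPKM) and Lef1 (66.3 FPKM) came next and overlapped. Then came S1pr1, Satb1 and Foxp1 (37.0, 36.8 and 34.7 FPKM), which overlapped in that order, and Bach2 and Foxo1 overlapped at the bottom (26.3 and 24.1 FPKM). Lef1 was apart from S1pr1 and Foxp1 from Bach2. Klf2 overlapped with S1pr1, at 41.54 FPKM in R111A replicate 2 against 43.23 FPKM for S1pr1 in R111A replicate 1. S1pr1 moved from the last place in WT to the level of Satb1 in R111A.

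Ccr7 (NCBI gene 12775, chromosome 11 from 99144196 to 99155077 of GRCm38) encodes the receptor for the chemokines CCL19 and CCL21 that draws T cells into lymph nodes. It was at 369.71 and 349.26 FPKM in WT against 588.14 and 511.21 FPKM in R111A. Both R111A libraries were above both WT libraries, and Ccr7 lay between the 98.2th and the 99.0th percentile of levels in each library. Its log2 fold change was 0.61 (standard error 0.13, 95% interval 0.31 to 0.90, adjusted p = 0.0044 from limma), which is short of 2-fold. It did not pass the test when each library was rescaled to the same sum (TPM), with a log2 fold change of 0.27 and an adjusted p of 0.081, the highest of 10 alternatives, against 0.0014 at the lowest (quantile normalization), or 0.00066 with the replicate number as a block.

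S1pr1 (NCBI gene 13609, chromosome 3 from 115710433 to 115715072) encodes the receptor that T cells follow out of lymph nodes and spleen. Its FPKM was 6.67 and 4.61 in WT and 43.23 and 30.78 in R111A. The lowest R111A library was 4.62 times the highest WT library. S1pr1 had the largest change of the 9 genes, a log2 fold change of 2.52 (standard error 0.21, 95% interval 2.04 to 2.99, adjusted p = 3.5e-05), above that of 99.1% of all genes tested. The ratio of Ccr7 to S1pr1 within a library, which dividing a library by a factor does not alter, was 55.4 and 75.8 in WT and 13.6 and 16.6 in R111A. The entry receptor was thus the more abundant in every library, by a smaller factor in R111A.

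Klf2 (NCBI gene 16598, chromosome 8 from 72319033 to 72321656) encodes a Krüppel-like factor that keeps T cells quiescent and drives S1pr1. It was at 24.70 and 20.88 FPKM in WT against 100.18 and 41.54 FPKM in R111A. Both R111A libraries exceeded WT, but replicate 1 was 2.41 times replicate 2, a gap wider than for 99.8% of all genes. The log2 fold change was 1.47 (standard error 0.33, 95% interval 0.71 to 2.23, adjusted p = 0.0061). Without R111A replicate 1 it was 0.84 (adjusted p = 0.0039) and no longer 2-fold, and without R111A replicate 2 it was 2.09. With no filter on low values the adjusted p was 0.063, the highest of the 10 alternatives. The lowest was 0.0033 in TPM, apart from 3e-18 with the replicate number as a block, a pairing that the labels do not give. Relative to S1pr1 in the same library, Klf2 was lower in R111A, with ratios of 2.32 and 1.35 against 3.70 and 4.53 in WT.

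Of 17 other genes of lymph node entry, adhesion and egress, 15 were tested. By the test 7 rose and 1 fell (21.2% and 32.1% of all genes), 5 and 1 of them called (8.52% and 8.34%). Their median log2 fold change was 0.41, from 0.19 without R111A replicate 1 to 0.70 without R111A replicate 2. In TPM the median was 0.08, with 6 genes higher and 5 lower by the test. Cxcr4, the receptor for CXCL12, rose from 5.99 and 6.32 FPKM in WT to 67.45 and 88.38 FPKM in R111A (log2 fold change 3.45, standard error 0.16, adjusted p = 3.6e-06). The gene that fell on the FPKM scale was Itgal, the alpha chain of the integrin LFA-1, at 132.84 and 122.31 FPKM in WT and 39.50 and 32.31 FPKM in R111A. Its log2 fold change was -1.81 (standard error 0.14, adjusted p = 3e-05), and the groups of both genes were apart. Cd69, whose protein removes S1PR1 from the cell surface and which T cells induce on activation, was at 221.01 and 242.25 FPKM in WT against 453.84 and 651.10 FPKM in R111A. Transcripts of the egress receptor and of its antagonist were therefore higher in the same libraries, with Cd69 at a log2 fold change of 1.23 (adjusted p = 0.0006).

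Foxo1 (NCBI gene 56458, chromosome 3 from 52268336 to 52353221) encodes the FOXO factor that drives homing and survival genes of naive T cells. Its level was 13.60 and 11.93 FPKM in WT and 28.41 and 19.70 FPKM in R111A. Both R111A libraries were higher, and the smaller of them was 1.45 times the larger WT value. On the log2 scale Foxo1 differed by 0.84 (standard error 0.19, 95% interval 0.42 to 1.27, adjusted p = 0.0051), which exceeded 2-fold only without R111A replicate 2 (1.10). In TPM the log2 fold change of Foxo1 was 0.53 (adjusted p = 0.021 from limma). Its paralogs Foxo3 and Foxo4, named here after their values were seen, rose too, with log2 fold changes of 0.58 (adjusted p = 0.018) and 0.64 (adjusted p = 0.01), and Foxo1 was 1.40 and 1.44 times the level of Foxo3 in WT and 1.80 and 1.62 times in R111A.

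Among 10 regulators upstream of FOXO factors, 4 rose and 2 fell by the test (21.2% and 32.1% of all genes). The median log2 fold change of these regulators was 0.14, or 0.24 without R111A replicate 1, and turned to -0.16 in TPM. Pik3ip1, an inhibitor of PI3K, was at 2.42 and 2.69 FPKM in WT against 45.62 and 36.28 FPKM in R111A. Sgk1, a kinase that phosphorylates FOXO factors, was at 1.19 and 1.03 FPKM in WT against 15.86 and 13.33 FPKM in R111A. These were the largest rises of the list, with log2 fold changes of 3.55 (standard error 0.16, adjusted p = 3.4e-06) and 2.88 (standard error 0.15, adjusted p = 5.2e-06), and both R111A libraries stood far above WT. Akt1, the kinase that keeps FOXO1 out of the nucleus, was at 83.65 and 86.03 FPKM in WT against 48.87 and 35.71 FPKM in R111A. It fell to about its 2-fold threshold (log2 fold change -1.0, standard error 0.16, adjusted p = 0.0012). It was not 2-fold lower with median-of-ratios factors (-0.87), quantile normalization (-0.80) or a pseudocount of 5 FPKM (-0.94), nor without R111A replicate 2 (-0.78) or without WT replicate 2 (-0.98). Akt2 fell by 0.67 on the log2 scale (adjusted p = 0.003), and did not pass without WT replicate 2, at a similar size (-0.65, adjusted p = 0.054). An inhibitor of the pathway and a FOXO kinase thus rose while Akt1 and Akt2 fell.

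Each of the 12 known FOXO target genes other than the 9 passed the test. Of the 12, 10 were higher (21.2% of all genes), all of them called (8.52%), and 2 were lower (32.1%). Their median log2 fold change was 1.95, and 1.63 in TPM. Il7r, the receptor chain for the survival cytokine IL-7, was at 4.58 and 3.77 FPKM in WT against 43.62 and 37.54 FPKM in R111A (log2 fold change 3.01, standard error 0.15, adjusted p = 4.8e-06). The other higher targets had log2 fold changes from 1.18 for Sesn1 to 3.55 for Pik3ip1. Bnip3, a mitochondrial protein of mitophagy and cell death, and Sesn3, a sestrin, fell, by 0.91 (adjusted p = 0.0013) and 0.44 (adjusted p = 0.025) on the log2 scale. Sesn3 did not pass without WT replicate 1 (-0.36, adjusted p = 0.35) or without WT replicate 2 (-0.52, adjusted p = 0.15), and its adjusted p over the other alternatives was 0.077 with quantile normalization and 0.088, the highest, with median-of-ratios factors, against 0.0009 at the lowest.

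Tcf7 and Lef1 encode related HMG-box factors, TCF1 and LEF1, that bind the same DNA motif and mark naive and stem-like T cells. Tcf7 (NCBI gene 21414, chromosome 11 from 52252371 to 52283014) was at 139.34 and 128.87 FPKM in WT against 308.77 and 185.29 FPKM in R111A. The groups were apart, and R111A replicate 1 stood 1.67 times above replicate 2. For Tcf7 this gave a log2 fold change of 0.83 (standard error 0.22, 95% interval 0.34 to 1.33, adjusted p = 0.012). It was 0.47 without R111A replicate 1 and 0.50 in TPM, and past 2-fold without R111A replicate 2 (1.2) and with quantile normalization (1.06). With no filter the adjusted p was 0.073, the highest of the alternatives, against 0.0061 at the lowest (quantile normalization), or 9.6e-07 with the block.

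Lef1 (NCBI gene 16842, chromosome 3 from 131110471 to 131224356) was at 44.06 and 43.45 FPKM in WT against 87.31 and 45.32 FPKM in R111A. R111A replicate 1 was high, while replicate 2 was only 1.03 times the higher WT library. The difference did not pass the test (log2 fold change 0.52, standard error 0.26, 95% interval -0.08 to 1.11, adjusted p = 0.12). It rested on R111A replicate 1, since the log2 fold change was 0.05 without that library (adjusted p = 0.62) and 0.98 without R111A replicate 2 (adjusted p = 0.0008). In TPM the groups overlapped, at 55.0 and 52.0 in WT and 82.9 and 44.8 in R111A. The ratio of Tcf7 to Lef1 within a library was 3.16 and 2.97 in WT and 3.54 and 4.09 in R111A, higher in both R111A libraries. The other genes of the family were nearly silent, Tcf7l1 at or under 0.20 FPKM and Tcf7l2 at or under 0.04 FPKM.

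Since several of the 9 genes encode DNA-binding factors of the same program, of which Klf2, Foxo1 and Tcf7 rose and Bach2 fell, their promoters were searched for the factors' core motifs. RefSeq promoter windows of GRCm38.p6, from 250 bases before to 50 bases after a start, were found for 7 of the 9 genes, in 17 windows of 300 bases among 32851 for all genes, and S1pr1 and Ccr7 had none. The motifs were GTAAACA for forkhead factors (in 3.65% of all windows on either strand), CTTTGAT and CTTTGAA for TCF/LEF (3.73% and 5.14%), CCACACCC and CCCCACCC for KLF (3.56% and 9.99%), and TGACTCA for AP-1, which resembles the BACH site (5.2%). CCCCACCC occurred in 6 of the 17 windows, at Lef1, Foxp1, Tcf7 and Satb1, where 3 Lef1 windows count of which 2 overlap and share the match. GTAAACA and CCACACCC occurred at Tcf7 alone and CTTTGAA at Foxp1 alone, and CTTTGAT and TGACTCA occurred in 0 of the windows. The windows below are those of Tcf7 (chr11:52282546-52282845, minus strand), which holds the most matches, of Lef1 as its paralog (chr3:131110047-131110346, plus strand) and of Foxp1 with the TCF/LEF match (chr6:99266466-99266765, minus strand). They read 5′ to 3′ on the strand of the gene, with the motifs in capitals. At Tcf7 the overlapping KLF matches begin 75 and 69 bases before the start and the forkhead match at base 2 of the transcript, the Lef1 match begins 78 bases before the start, and that of Foxp1, on the other strand, 205 bases before it. A match is a description of the letters and does not show that a factor binds.
Tcf7: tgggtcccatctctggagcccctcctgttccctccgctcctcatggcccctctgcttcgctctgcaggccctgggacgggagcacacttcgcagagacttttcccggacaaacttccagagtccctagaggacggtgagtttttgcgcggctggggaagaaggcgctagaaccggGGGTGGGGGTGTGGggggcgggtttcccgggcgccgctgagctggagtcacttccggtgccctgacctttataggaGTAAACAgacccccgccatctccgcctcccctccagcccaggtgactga
Lef1: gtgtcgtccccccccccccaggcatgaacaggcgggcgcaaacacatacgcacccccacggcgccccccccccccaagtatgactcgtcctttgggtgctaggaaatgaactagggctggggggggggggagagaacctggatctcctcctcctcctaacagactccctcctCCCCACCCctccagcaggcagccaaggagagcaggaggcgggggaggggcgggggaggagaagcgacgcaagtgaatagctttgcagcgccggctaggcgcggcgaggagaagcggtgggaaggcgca
Foxp1: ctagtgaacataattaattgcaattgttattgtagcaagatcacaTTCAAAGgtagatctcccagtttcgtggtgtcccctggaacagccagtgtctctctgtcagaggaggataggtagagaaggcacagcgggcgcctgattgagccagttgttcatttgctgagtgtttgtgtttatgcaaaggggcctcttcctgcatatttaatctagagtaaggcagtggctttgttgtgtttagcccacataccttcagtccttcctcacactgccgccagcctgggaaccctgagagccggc

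Of 15 partners of TCF and LEF factors, namely beta-catenin, corepressors and others, 12 were tested, and 4 rose and 0 fell (21.2% and 32.1% of all genes), none of them 2-fold on the log2(FPKM + 1) scale. Their median log2 fold change was 0.22, from 0.03 without R111A replicate 1 to 0.41 without R111A replicate 2, and it turned to -0.11 in TPM, where 1 was higher and 2 were lower by the test. Tle1, a Groucho corepressor, was at 3.34 and 3.01 FPKM in WT against 7.06 and 5.91 FPKM in R111A (log2 fold change 0.84, standard error 0.15, adjusted p = 0.0018). It reached 2-fold with a pseudocount of 0.1 FPKM (log2 fold change 1.004) and was smaller in TPM (0.57) and with a pseudocount of 5 FPKM (0.49). Apc, a scaffold of the complex that degrades beta-catenin, was at 7.83 and 6.58 FPKM in WT against 8.91 and 12.80 FPKM in R111A. Its log2 fold change was 0.52 (adjusted p = 0.044), which fell short of the test in TPM (0.22, adjusted p = 0.35, the highest of the alternatives, against 0.018 at the lowest, or 0.0078 with the block), with no filter (adjusted p = 0.13), without R111A replicate 2 (0.28, adjusted p = 0.12), without WT replicate 1 (adjusted p = 0.08) and without WT replicate 2 (adjusted p = 0.29). Ctnnb1, beta-catenin itself, named here after its values were seen, was at 103.96 and 97.71 FPKM in WT against 79.72 and 94.28 FPKM in R111A (log2 fold change -0.22, adjusted p = 0.21).

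A list of 12 other genes of stem-like and memory-precursor T cells went both ways. By the test 6 were higher and 4 lower (21.2% and 32.1% of all genes), 5 and 0 of them called (8.52% and 8.34%). The median log2 fold change of the list was 0.41 (0.14 in TPM). Myb, a factor of stem-like T cells, was at 12.23 and 11.19 FPKM in WT against 73.72 and 83.62 FPKM in R111A. It rose clear of WT in both libraries, 2.65 higher on the log2 scale (standard error 0.14, adjusted p = 5.2e-06). Il6ra, the IL-6 receptor chain, and Bcl11b, a factor of T cell identity, were the furthest lower. Il6ra was at 22.49 and 21.20 FPKM in WT against 15.27 and 8.28 FPKM in R111A (log2 fold change -0.89, adjusted p = 0.013), and its log2 fold change was -0.49 without R111A replicate 2. With no filter its adjusted p was 0.079, the highest of the alternatives, against 0.00032 at the lowest (TPM), or 8.8e-07 with the block. Bcl11b was at 18.68 and 17.83 FPKM in WT against 11.87 and 8.04 FPKM in R111A (log2 fold change -0.84, adjusted p = 0.005). Genes that mark stem-like cells were thus among both the higher and the lower ones, the lower at about the share of all genes.

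The remaining members of the 9 were lower in both R111A libraries. Bach2 (NCBI gene 12014, chromosome 4 from 32238804 to 32586108) encodes a repressor that competes with AP-1 and restrains effector differentiation. It was at 40.46 and 37.95 FPKM in WT against 25.57 and 26.97 FPKM in R111A. The groups were clearly apart, the R111A replicates were closer to each other than for most genes, and Bach2 was the only one of the 9 that was not higher in R111A replicate 1 than in replicate 2. The log2 fold change was -0.56 (standard error 0.13, 95% interval -0.86 to -0.26, adjusted p = 0.0067). It had a similar size but did not pass the test without WT replicate 1 (-0.52, adjusted p = 0.15) and without WT replicate 2 (-0.60, adjusted p = 0.081). Its paralog Bach1 rose, from 4.36 and 4.08 FPKM in WT to 10.89 and 12.63 FPKM in R111A (log2 fold change 1.29, standard error 0.15, adjusted p = 0.00017). The ratio of Bach2 to Bach1 within a library was 9.28 and 9.30 in WT and 2.35 and 2.14 in R111A, close between the replicates of each group and far lower in R111A.

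Satb1 (NCBI gene 20230, chromosome 17 from 51736187 to 51833290) encodes a chromatin organiser of T cells. It was at 49.14 and 43.25 FPKM in WT against 41.52 and 32.06 FPKM in R111A. The higher R111A library nearly reached the lower WT library, and the difference did not pass the test (log2 fold change -0.33, standard error 0.16, 95% interval -0.69 to 0.04, adjusted p = 0.11). It did pass without R111A replicate 1 (-0.51, adjusted p = 0.012) and in TPM (-0.66, adjusted p = 0.0031, the lowest of the alternatives, against 0.43 at the highest). Without any other library it did not pass, with log2 fold changes of -0.15 (without R111A replicate 2), -0.24 (without WT replicate 1) and -0.42 (without WT replicate 2).

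Foxp1 (NCBI gene 108655, chromosome 6 from 98925338 to 99522721) encodes a forkhead factor that holds naive T cells in quiescence and opposes FOXO1 at Il7r. It was at 44.82 and 42.22 FPKM in WT against 35.88 and 33.45 FPKM in R111A. The groups were apart by more than the spread within them, yet the change fell short of the threshold (log2 fold change -0.32, standard error 0.13, 95% interval -0.62 to -0.02, adjusted p = 0.065). Foxp1 passed in TPM (-0.65, adjusted p = 0.0017, the lowest of the alternatives, against 0.31 at the highest), without R111A replicate 1 (-0.37, adjusted p = 0.018) and without R111A replicate 2 (-0.27, adjusted p = 0.046), but not without WT replicate 1 (-0.28, adjusted p = 0.47) or without WT replicate 2 (-0.36, adjusted p = 0.33). Within a library the ratio of Foxo1 to Foxp1 was 0.303 and 0.283 in WT and 0.792 and 0.589 in R111A. Foxp1 stayed the more abundant of these opposed forkhead genes in every library, by a smaller factor in R111A.

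**Figure D2:**
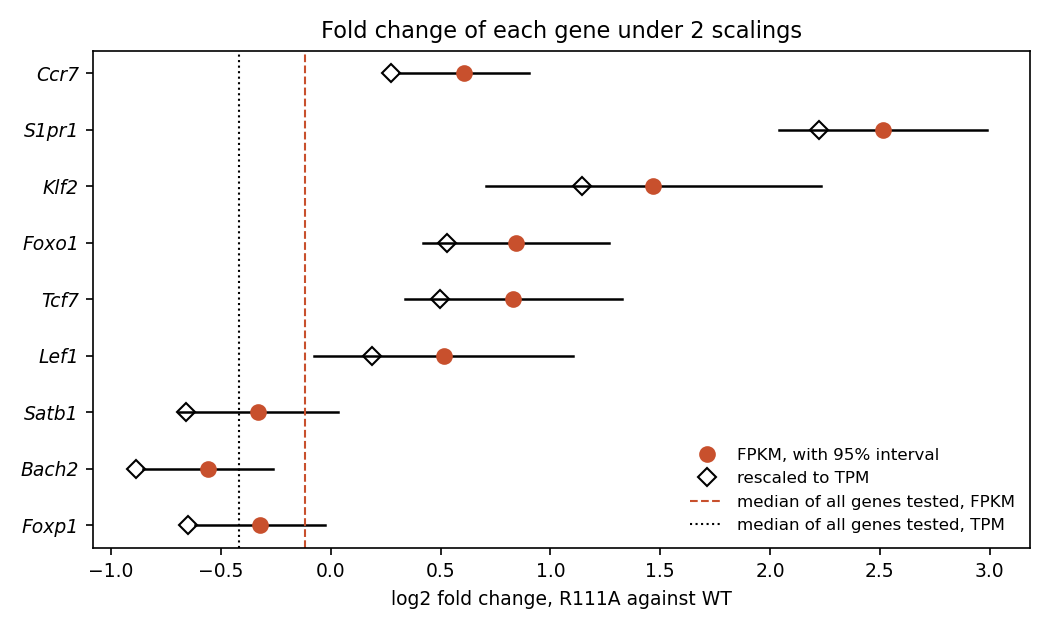
The log2 fold change, R111A against WT, of each gene on the FPKM scale (points, with 95% intervals) and after rescaling to TPM (diamonds), with the median of all genes tested as a dashed line (FPKM) and a dotted line (TPM). Ccr7, S1pr1, Klf2, Foxo1, Tcf7 and Lef1 lie above the median and Satb1, Bach2 and Foxp1 below it on both scales.

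Each of the 9 genes kept its direction in TPM, after quantile normalization and with median-of-ratios factors, but the size of the change depended on the scaling. Rescaling to TPM moved the median of all genes by -0.30, to -0.42, and the counts called higher and lower from 838 and 820 to 583 and 1749. Division by median-of-ratios factors moved the median by 0.12, to near 0. Relative to the median of all genes, the median of the 9 genes was 0.72 on the FPKM scale, 0.69 in TPM and 0.74 with median-of-ratios factors. On that footing S1pr1 was at 2.63, Klf2 at 1.58, Foxo1 at 0.96, Tcf7 at 0.95, Ccr7 at 0.72 and Lef1 at 0.63 on the FPKM scale, and Bach2 at -0.45 (-0.47 in TPM). Satb1 at -0.21 and Foxp1 at -0.20 (-0.24 and -0.23 in TPM) lay close to the median of all genes.

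**Figure D3:**
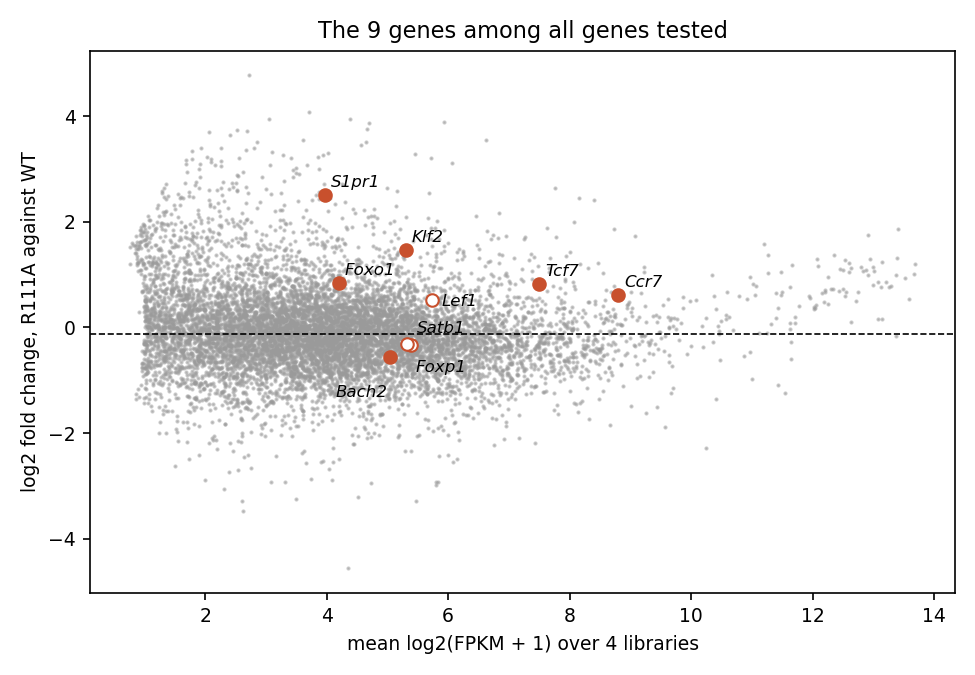
Mean log2(FPKM + 1) over the 4 libraries against log2 fold change for the 9831 genes tested (grey), with the 9 genes in orange, filled where the adjusted p was under 0.05, and the median of all genes as a dashed line. In log2 fold change S1pr1 and Klf2 lie above 99.1% and 95.6% of all genes tested, and Satb1 and Foxp1 lie within the main cloud.

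For 6 of the 9 genes the R111A replicates differed more than for most genes, and for Ccr7, Foxp1 and Bach2 they differed less (47.1th, 24.5th and 18.9th percentile). R111A replicate 1 was above replicate 2 for 8 of the 9, against 48.4% of all genes, and the median absolute log2 difference between these replicates was 0.477, against 0.215 for all genes. Klf2, Lef1 and Tcf7 had the widest gaps, at factors of 2.41, 1.93 and 1.67, in the 99.8th, 99.6th and 98.5th percentiles of all genes. Between the WT replicates, replicate 1 was above replicate 2 for 9 of the 9, against 50.7% of all genes, at a median difference of 0.112 against 0.0912. The median log2 fold change of the 9 was accordingly 0.47 without R111A replicate 1 and 0.98 without R111A replicate 2, and the number called higher was 1 (S1pr1) and 4 (with Tcf7 and Foxo1). What sets these replicates apart was not tested.

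**Figure D4:**
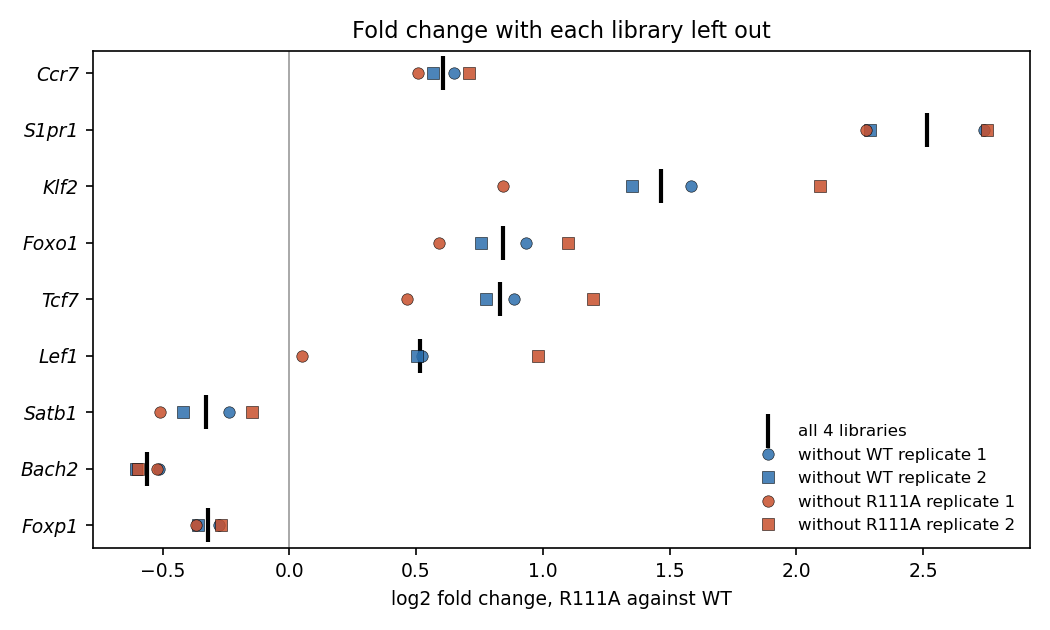
The log2 fold change of each gene with all 4 libraries (bars) and with each library left out (WT in blue, R111A in orange, replicate 1 as circles, replicate 2 as squares). No gene changes direction, and leaving out an R111A replicate moves Klf2, Lef1 and Tcf7 most.

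The ratio of Klf2 to Bach2, a gene that rose and a gene that fell, was 0.610 and 0.550 in WT and 3.92 and 1.54 in R111A. Bach2 was the more abundant in both WT libraries and Klf2 in both R111A libraries. The ratio of Tcf7 to Bach2 rose in the same way, from 3.44 and 3.40 in WT to 12.1 and 6.87 in R111A. Against its paralog Klf6, which was at 9.57 and 10.14 FPKM in WT and 29.68 and 31.45 FPKM in R111A (log2 fold change 1.54, adjusted p = 4.5e-05), Klf2 had ratios of 2.58 and 2.06 in WT and 3.38 and 1.32 in R111A, which overlapped.

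Of 27 paralogs of the 9 genes, 17 were tested, and 9 rose and 3 fell (21.2% and 32.1% of all genes). The median log2 fold change of the paralogs was 0.58. In TPM, 7 were higher and 6 lower by the test, with a median of 0.27. Klf6 and Bach1 rose furthest. The chemokine receptor Ccr4, used by T cells that enter skin and by regulatory T cells, fell furthest, from 44.69 and 37.20 FPKM in WT to 5.77 and 6.45 FPKM in R111A (log2 fold change -2.56, standard error 0.15, adjusted p = 8.8e-06). Foxp3, which defines regulatory T cells, fell as well (log2 fold change -1.72, standard error 0.19, adjusted p = 0.00015). Both were lower in both R111A libraries.

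Factors that oppose the naive program, or that BACH2 opposes, were split. Of 16 listed, 14 were tested. By the test 5 rose and 6 fell (21.2% and 32.1% of all genes), 5 and 3 of them called (8.52% and 8.34%). Their median log2 fold change was -0.01, and lay between -0.09 and 0.04 with a library left out. In TPM it was -0.27, with 5 higher and 7 lower by the test. The AP-1 and MAF genes Fosl2 and Maff rose, with log2 fold changes of 2.51 (standard error 0.14, adjusted p = 7.3e-06) and 1.86 (standard error 0.15, adjusted p = 3e-05). Other genes of these families, named here after their values were seen, went both ways. Jun and Junb rose (log2 fold changes 1.15 and 1.07). Batf and Mafk fell (log2 fold changes -1.45 and -0.46, adjusted p = 5.3e-05 and 0.034 from limma). Tbx21, which encodes T-bet, was at 30.32 and 29.08 FPKM in WT against 5.44 and 3.16 FPKM in R111A. Irf4, a factor induced by antigen receptor signals, was at 426.09 and 367.72 FPKM in WT against 117.23 and 134.59 FPKM in R111A. These factors of effector cells fell in both R111A libraries (log2 fold changes -2.57 and -1.65, adjusted p = 3e-05 and 3.8e-05). Rora, of the same list and also named after its values were seen, rose (log2 fold change 1.06, adjusted p = 0.0019 from limma). Prdm1, the gene of the effector factor BLIMP1 and a known target of BACH2, was near the floor at 0.47 and 0.70 FPKM in WT and 0.78 and 0.71 FPKM in R111A and was not tested.

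**Figure D5:**
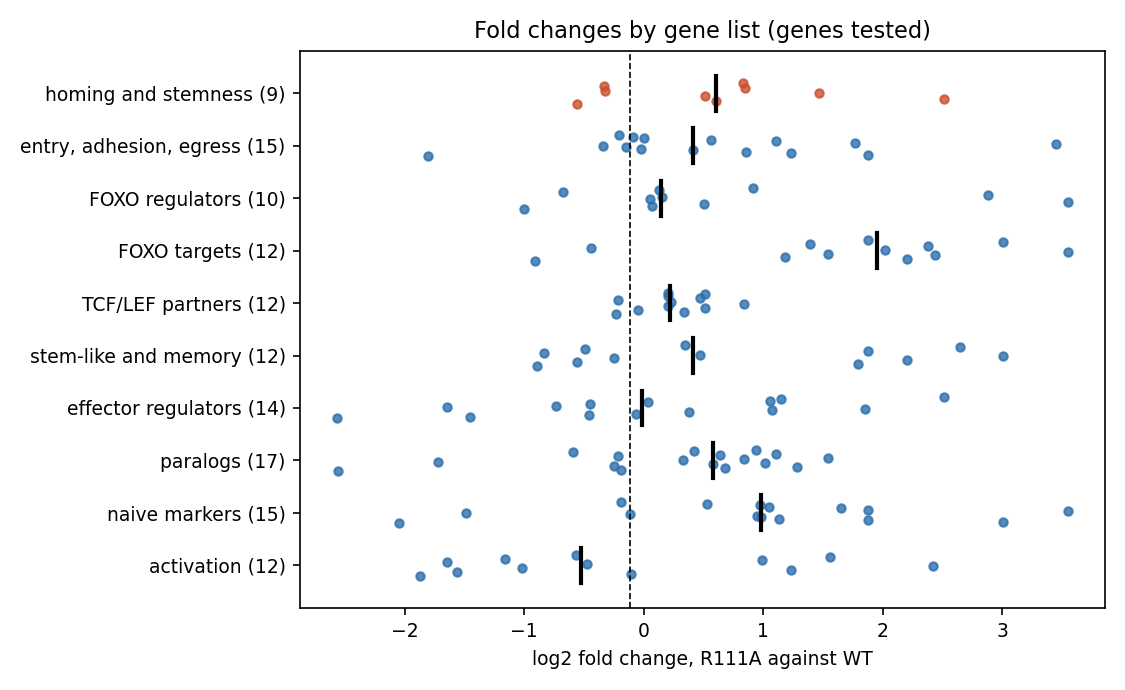
The log2 fold change, R111A against WT, of each tested gene in the 9 genes (orange) and in the other lists (blue), with the number tested in parentheses, the median of each list as a bar and that of all genes as a dashed line. Known FOXO targets have the highest median, 1.95, and activation genes the lowest, -0.52, while each list but that of TCF and LEF partners holds genes more than 0.5 on either side of 0.

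Other genes of resting naive CD4+ T cells were mostly higher. Of 15, 11 rose and 2 fell (21.2% and 32.1% of all genes), 7 and 2 of them called (8.52% and 8.34%). Their median log2 fold change was 0.98 (0.68 in TPM), with Pik3ip1 and Il7r at the top. Igfbp4 and Dapl1, known as markers of naive T cells, fell, and the other 2 genes, Actn1 and Rgs10, named after their values were seen, did not pass (log2 fold changes -0.19 and -0.11). Igfbp4 was at 18.55 and 17.86 FPKM in WT against 4.31 and 3.08 FPKM in R111A, and Dapl1 at 31.19 and 28.31 against 11.01 and 8.97 FPKM. Both fell more than 2-fold in both libraries (log2 fold changes -2.05 and -1.49, adjusted p = 3.1e-05 and 9.3e-05).

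Of 12 genes of T cell activation, 4 rose and 7 fell (21.2% and 32.1% of all genes), 3 and 5 of them called (8.52% and 8.34%). Their median log2 fold change was -0.52 (-0.85 in TPM). Tfrc, the transferrin receptor of growing cells, was at 110.21 and 114.60 FPKM in WT against 23.09 and 38.99 FPKM in R111A, and with Irf4 it fell furthest (log2 fold change -1.87, standard error 0.22, adjusted p = 0.0002). Nr4a1, an immediate early gene of antigen receptor signals, was instead at 145.72 and 143.84 FPKM in WT against 982.95 and 616.23 FPKM in R111A. Egr2, of the same kind, was at 51.40 and 50.62 FPKM in WT against 178.62 and 130.18 FPKM in R111A. Nr4a1 and Egr2 rose in both libraries (log2 fold changes 2.42 and 1.56, adjusted p = 3.8e-05 and 0.00012), so the activation genes did not move as a body. The genes of the homing program were thus measured in cells in which some transcripts of activation were higher and others lower.

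By distance between centred log2(FPKM + 1) values over the 4 libraries, among 7647 genes that reach 5 FPKM on average, the genes nearest to S1pr1, which had the highest log2 fold change of the 9, were Sertad1 (0.148), Pou6f1 (0.159) and H2bc18 (0.210). Sertad1 was at 22.26 and 18.49 FPKM in WT against 141.92 and 106.36 FPKM in R111A. Its log2 fold change was 2.54, against 2.52 for S1pr1. Nearest to Bach2, which had the lowest log2 fold change, were Kbtbd4 (0.0148), Polr3b (0.0162) and Toe1 (0.0359). Kbtbd4 was at 21.91 and 20.78 FPKM in WT against 13.87 and 14.62 FPKM in R111A. Its log2 fold change of -0.55 was close to that of Bach2, and with 4 libraries such nearness describes no more than the same steps between groups and replicates.

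The genes lie on 6 chromosomes, with S1pr1, Lef1 and Foxo1 on chromosome 3 and Ccr7 and Tcf7 on chromosome 11, and by the GENCODE vM21 models they range from 2624 bases for Klf2 to 597384 bases for Foxp1. The Klf2 transcript has 3 exons and 1 coding model, whereas Foxp1 has 12 coding models and Satb1 7. The table gives 1 value per gene, so a change of isoform within Foxp1, Satb1, Lef1, Bach2 or Tcf7 would not show.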

How the data were processed

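The authors removed adaptors and low-quality reads from polyA RNA-seq, ran Bowtie2 2.4.4 against mm10 and RSEM 1.2.28 and deposited FPKM values, 1 per gene and library. They called genes with DESeq2, which was not repeated. Here limma 3.58.1 in R 4.3.3 (lmFit, eBayes with trend, Benjamini-Hochberg) was run on log2(FPKM + 1) of all genes that average 1 FPKM or more. Called genes differed 2-fold at an adjusted p under 0.05. The procedure was tested on simulated data. These were drawn gene by gene with the same spread in both groups, unlike the real libraries, whose R111A replicates spread more widely. Besides the 9 genes, those named were up to 2 per direction and list with the largest change at an adjusted p under 0.05, and Il7r, Cd69, Prdm1, Akt1, Pik3ip1 and Zc3h12a always, except where said. The members and lists were chosen with earlier results of these data known. The 10 alternatives were pseudocounts (0.1, 5 FPKM), filters (none, 5 FPKM), TPM, median-of-ratios and quantile scaling, a replicate block, and eBayes without trend or robust. Calls without the fold threshold were also counted, and each library was left out in turn. Promoters were RefSeq, gene models GENCODE. Python was version 3.11.15.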

Additional observations from a re-analysis of the deposited data

How the results depend on the processing

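Over the 9 genes and 10 alternatives that keep all libraries, direction and side of the test's threshold held in 84 of 90 cases, with 3 weaker, 3 stronger and 0 reversed. The number of the 9 genes called higher was 2, and it was 1 with no filter, 3 with quantile normalization and 5 with no fold threshold, and ranged from 1 to 4 with a library left out. The number called lower was 0 with each library left out, and 1 with no fold threshold. Of all genes, 838 were called higher, with 521 at a filter of 5 FPKM, 386 at a pseudocount of 5 FPKM and 2088 with no fold threshold, and 834 to 851 with a library left out. Called lower were 820, with 402 at a pseudocount of 5 FPKM, 1749 in TPM and 3152 with no fold threshold, and 824 to 884 with a library left out. The median log2 fold change of the 9 genes was 0.61, and 0.79 with quantile normalization, 0.27 in TPM and 0.47 to 0.98 with a library left out. Filters and fold thresholds change how many genes can be called by construction. For the other shifts the cause was not tested. With the replicate number as a block (replicate block), 841 genes were called higher and 821 lower, and Lef1 passed (adjusted p = 0.0032), but the labels give no pairing. Without a library, its group's lone library is assumed to vary like the other group. The 2 libraries per group and unknown read depth limit the precision of each value.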
